A study of Mus musculus with 9 samples.

Results

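The promoters examined here belong to 1318 long noncoding RNA (lncRNA) genes whose transcription start site (TSS) lay more than 2 kb from the TSS of every protein-coding gene in the expression table of primary mouse embryonic fibroblasts (MEFs). They were taken from the 2161 genes that the table calls lncRNA, out of 19769 genes in all, and each region ran 1 kb to either side of the TSS (the gene start on the plus strand, the gene end on the minus strand; mm10). The other 843 lncRNA genes started within 2 kb of a coding gene and served with the protein-coding genes as the comparison. RNA had been sequenced in 4 libraries, 2 of low_MYC and 2 of high_MYC cells. Both groups were primary MEFs from Myc-Egfp+/+ mice, which carry a fluorescent MYC fusion at both alleles; all cells had been treated with 20 µM of the proteasome inhibitor MG-132 for 6 h, sorted for low or high GFP and plated overnight. The 2 libraries of a group were technical replicates, so every test below measures the spread between libraries and not between embryos or cultures. Chromatin accessibility came from TACh-seq, in which nuclei are cut briefly with the nuclease Cyanase (3 min) and fragments of 100 to 600 bp are sequenced. Its 4 samples were WT MEFs with non-target siRNA and KOKD MEFs, which lack Fubp1 and received Fubp2 siRNA (100 nM, 48 h; 2 of each). The labels of all 4 name a single read table without a library column, so no WT and KOKD values could be separated, and accessibility has no replicate error here. The table's own name refers to a WT sample, so its reads may come from 1 WT library and not from all 4 samples; which it holds is not stated in the sources used here. FUBP1 ChIP-seq peaks from 1 sample of MEFs at steady state complete the data. The TACh-seq reads and RNA values related to each other below thus came from different cells under different treatments.

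LncRNAs are transcripts, mostly capped, spliced and polyadenylated, that encode no known protein. Some act in the nucleus as scaffolds or silencers of neighbouring genes, some host small nucleolar RNAs or microRNAs in their introns, and many have no known role. An active promoter of either gene class usually carries a stretch free of nucleosomes, which nucleases cut readily. Promoters rich in CpG dinucleotides tend to be open in many cell types, whereas CpG-poor promoters and enhancers tend to be open in particular ones.

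The sequences from 250 bases before to 50 after the TSS are shown first for 4 promoters with many TACh-seq reads and abundant RNA, which differ widely in composition. They were read from the mm10 genome (RefSeq assembly) in the direction of transcription, and capitals mark matches on either strand to the GC box GGGCGG, the CCAAT box CCAAT, the TATA box TATAAA or the ETS site CCGGAAG.
Malat1 (chr19:5802623-5802922, minus strand): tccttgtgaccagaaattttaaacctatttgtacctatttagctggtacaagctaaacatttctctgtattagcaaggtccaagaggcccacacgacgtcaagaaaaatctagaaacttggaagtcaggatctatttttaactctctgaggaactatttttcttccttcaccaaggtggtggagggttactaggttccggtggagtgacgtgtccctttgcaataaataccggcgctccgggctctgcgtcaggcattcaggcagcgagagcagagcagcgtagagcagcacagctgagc
Snhg5 (chr9:88522880-88523179, minus strand): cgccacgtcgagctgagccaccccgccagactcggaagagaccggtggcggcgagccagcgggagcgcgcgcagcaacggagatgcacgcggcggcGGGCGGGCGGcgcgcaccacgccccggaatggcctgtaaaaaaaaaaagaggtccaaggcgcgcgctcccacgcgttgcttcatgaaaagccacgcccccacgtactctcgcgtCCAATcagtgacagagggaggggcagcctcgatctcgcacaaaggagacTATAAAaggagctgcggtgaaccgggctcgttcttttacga
Snhg8 (chr3:123508355-123508654, minus strand): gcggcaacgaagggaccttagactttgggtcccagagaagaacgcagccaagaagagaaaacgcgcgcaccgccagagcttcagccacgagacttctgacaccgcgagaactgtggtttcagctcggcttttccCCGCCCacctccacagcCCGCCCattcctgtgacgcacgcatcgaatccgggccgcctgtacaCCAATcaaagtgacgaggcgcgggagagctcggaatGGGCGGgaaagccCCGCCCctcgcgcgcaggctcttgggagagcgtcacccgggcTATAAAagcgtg
Dnm3os (chr1:162217373-162217672, plus strand): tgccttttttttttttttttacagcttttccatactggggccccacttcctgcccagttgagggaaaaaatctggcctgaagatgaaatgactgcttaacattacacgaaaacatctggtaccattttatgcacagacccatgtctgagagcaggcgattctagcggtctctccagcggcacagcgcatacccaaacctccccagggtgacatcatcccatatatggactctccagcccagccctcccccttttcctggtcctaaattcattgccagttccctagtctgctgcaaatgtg
Snhg5 and Snhg8, hosts of small nucleolar RNAs, had GC contents of 64.7% and 62.7% with 38 and 30 CpGs. The promoter of Dnm3os, which hosts microRNAs in fibroblasts, had 48.7% GC, 5 CpGs and none of these motifs, yet 327 reads lay within 1 kb of its TSS.

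The next 2 promoters are shown because their RNA was among the most abundant while the table listed no read near them.
H19 (chr7:142578094-142578393, minus strand): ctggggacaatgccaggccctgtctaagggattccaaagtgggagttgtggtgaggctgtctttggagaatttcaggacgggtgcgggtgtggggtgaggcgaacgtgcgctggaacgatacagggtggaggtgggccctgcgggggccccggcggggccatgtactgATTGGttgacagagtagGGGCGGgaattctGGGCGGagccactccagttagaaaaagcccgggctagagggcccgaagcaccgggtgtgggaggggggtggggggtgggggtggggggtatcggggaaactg
2900097C17Rik (chr2:156392930-156393229, minus strand): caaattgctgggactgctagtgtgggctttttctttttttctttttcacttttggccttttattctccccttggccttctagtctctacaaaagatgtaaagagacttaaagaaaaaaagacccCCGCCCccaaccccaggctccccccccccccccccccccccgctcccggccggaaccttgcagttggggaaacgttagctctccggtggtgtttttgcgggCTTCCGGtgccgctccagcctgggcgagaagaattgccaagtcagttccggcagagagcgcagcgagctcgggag
H19 is an imprinted growth-restraining lncRNA, and 2900097C17Rik is the mouse gene of Norad, which binds Pumilio proteins. Their GC contents were 64.3% and 56.7%, and GC boxes lay at −65 and −52 in H19 and at −126 in 2900097C17Rik, where 0 is the TSS and negative positions lie before it.

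A minority of these promoters lay in open chromatin. Of 1318, 491 held at least 10 TACh-seq reads in the 2001-bp region and are called accessible below, which is 37.3% (95% exact binomial interval 34.6 to 39.9, covering counting error only). A further 22 held 1 to 9 reads, and 805 had no read listed. The read table (4881417 reads) covers called islands only, so an unlisted region may have had reads in the libraries, and whether the table lists every called island is not known. An accessible promoter held a median of 116 reads (quartiles 76.5 and 173.5), against 152 in accessible protein-coding promoters. The nearest read of the promoters without one lay a median of 16087 bp from the TSS. Accessible shares were 67.9% (67.2 to 68.7) of 15105 protein-coding promoters and 88.7% (86.4 to 90.8) of the lncRNA promoters within 2 kb of a coding start. As the background of the table, 4.001% of all 2001-bp stretches of the genome held at least 10 reads.

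Accessibility was centred on the start sites but less tightly than at coding genes. Windows of the same size 10 kb before and 10 kb after the lncRNA starts held 10 reads in 10.8% and 13.5% of cases, against 8.88% and 8.75% beside coding starts. At 50 kb the shares were 9.26% and 9.71% beside lncRNA genes and 9.06% and 9.51% beside coding genes. Within accessible regions, the densest 250-bp stretch lay within 250 bp of the TSS in 241 of 491 lncRNA promoters (49.1%, 44.6 to 53.6) and in 74.8% (73.9 to 75.6) of coding promoters. The median share of a region's reads within 500 bp of the TSS was 68.2% and 79.1%, respectively. When any annotated start of the same gene was allowed, 523 lncRNA genes (39.7%) had an accessible one.

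**Figure D1:**
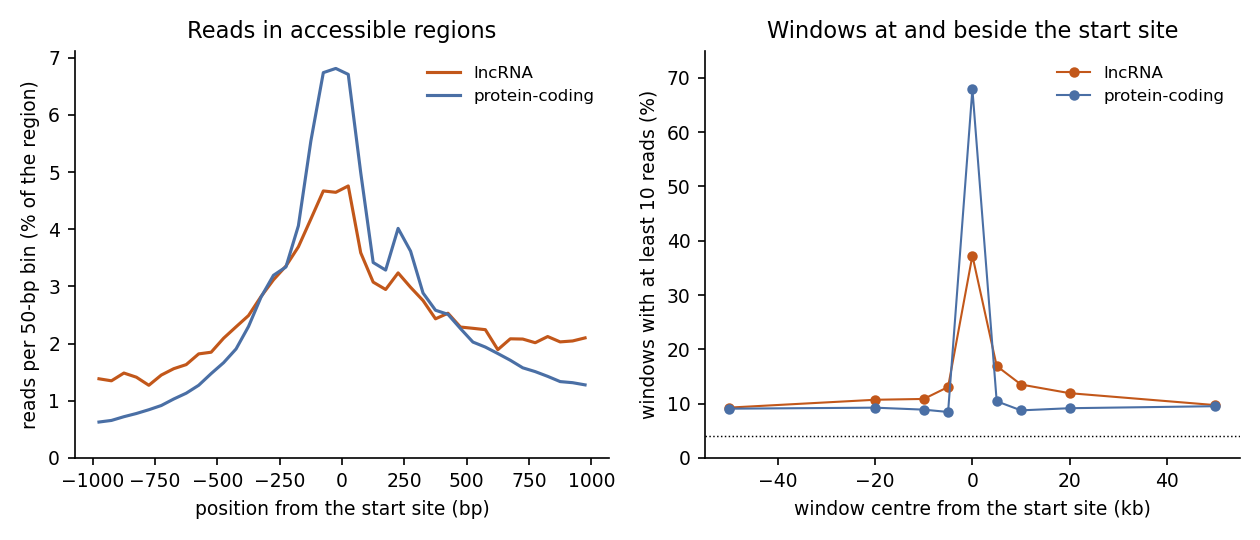
Left, reads per 50-bp bin as a percentage of the region's reads, averaged over the 491 accessible lncRNA promoters and the accessible protein-coding promoters, against the position from the TSS in bp in the direction of transcription. Right, percentage of 2001-bp windows with at least 10 reads against the distance of the window from the TSS in kb, with the dotted line at the 4.001% of all such stretches of the genome; both classes peak at 0, lncRNA genes at 37.3% and coding genes at 67.9%.

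RNA from these genes was scarce. Their median level was 0.0143 normalized FPK, the fragments per kilobase of transcript divided by the spike-in score of the library, averaged over the 4 libraries; the median of protein-coding genes was 0.422. No gene was at 0 in all 4 libraries, 207 reached 0.1, 50 reached 1 and 8 reached 10. The share of accessible promoters was 32.5% (28.6 to 36.6) of 557 promoters below 0.01, 38.8% (34.7 to 43.0) of 554 from 0.01 to 0.1, 43.9% (36.05 to 52.1) of 157 from 0.1 to 1, 54.8% (38.7 to 70.2) of 42 from 1 to 10, and 37.5% (8.52 to 75.5) of the 8 above. Coding promoters went from 18.9% (17.3 to 20.6) to 45.5%, 79.0%, 90.1% and 90.2% over the same ranges. In the lowest range the share was higher for lncRNA than for coding promoters, and from 0.01 upwards it was lower. The counting intervals did not overlap in any range, with 43.5 to 47.4 for coding promoters from 0.01 to 0.1. Promoters are not replicates of a condition, and with 1 read table of unstated libraries the difference could not be tested across libraries. Across the 1318 promoters, Spearman's rho between reads and mean RNA was 0.13, against 0.51 across coding promoters and 0.16 across lncRNA promoters near coding starts. Among accessible promoters alone, rho was 0.20 for lncRNA and 0.20 for coding genes, and at 0.1 normalized FPK or more it was 0.11 and 0.21. These correlations are descriptions: all points share the same read table and the same 4 libraries. The RNA came from sorted Myc-Egfp+/+ MEFs treated with MG-132, whereas the reads came from MEFs given siRNA.

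**Figure D2:**
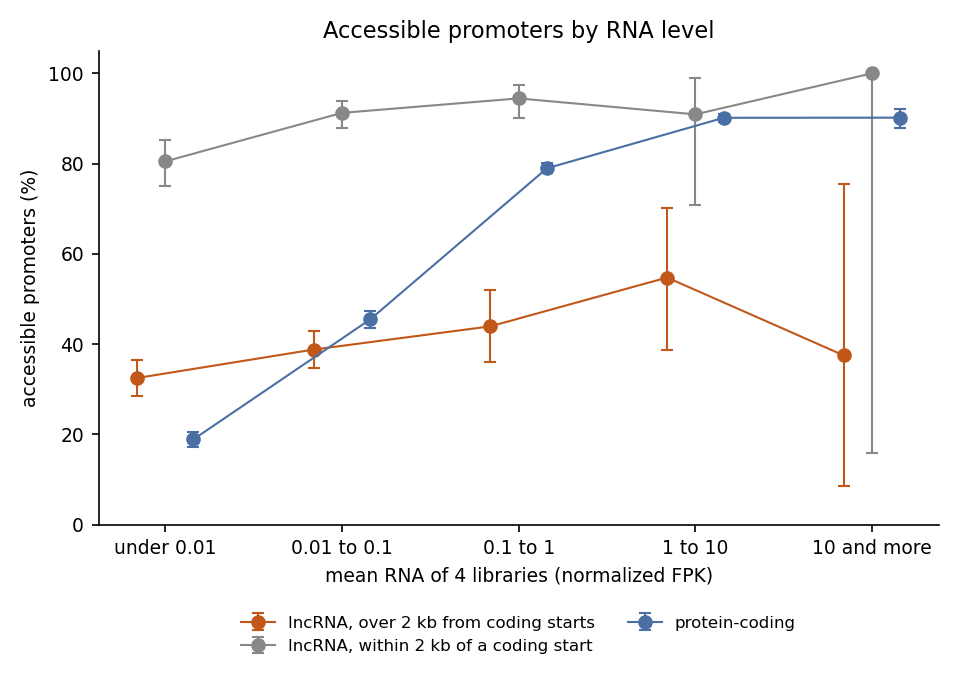
Percentage of promoters with at least 10 TACh-seq reads within 1 kb of the TSS against the mean RNA level in normalized FPK, for the 1318 lncRNA promoters, the lncRNA promoters within 2 kb of a coding start and protein-coding promoters. Points are shares and bars are 95% exact binomial intervals; the orange points run from 32.5% to 54.8% and end at 37.5% over 8 genes, while the blue points rise from 18.9% to 90.2%.

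Among the best expressed genes, accessibility differed with how much of the transcript sequence was shared with other genes. The measure covers 1280 genes with a transcript in the GENCODE M21 annotation. All 50-base words of their transcripts were looked up in the transcripts of every other gene, on both strands. A short read from a word shared on the same strand cannot be assigned to 1 gene. Words shared on the opposite strand alone can be assigned where strand is counted. The RNA libraries were stranded, but whether strand was used in counting is not stated. At 1 normalized FPK or more, 3 of 14 genes with at least 50% of their words in other genes had an accessible promoter (21.4%, 4.66 to 50.8), against 23 of 35 genes below 50% (65.7%, 47.8 to 80.9). At 0.1 or more the shares were 30.6% of 36 and 50.3% of 167, and over all 1280 genes they were 18.5% of 146 and 39.4% of 1134. The exon count divided the genes in a like way: with RNA of at least 0.1, 19 of 63 genes with 1 exon (30.2%, 19.2 to 43.0) and 76 of 140 with several (54.3%, 45.7 to 62.7) had accessible promoters. The 3 accessible genes among the 14 include AY036118 and Gm42418, which overlap on opposite strands. Whether RNA of these genes came from their copies was not tested.

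The individual genes at the top of the RNA scale show this mixture. Gm10076, a gene with 1 exon on chromosome 14, had the highest level, 154 and 149 normalized FPK in the low_MYC libraries and 334 and 310 in the high_MYC libraries; 69.9% of its words occurred in other genes and its nearest read lay 2.13 kb away. Gm26825 followed at 52.6, 50.3, 109 and 114 in the same order, with 93.3% of its words shared and no read within 31.1 kb. H19, at 40.8, 39.1, 117 and 118, was a different case, since 2.96% of its words were shared and the nearest listed read still lay 44.3 kb from the TSS; whether reads nearer to it are missing from the table is not known, here or for the other genes without a read. 2900097C17Rik stood at 16.7, 17.7, 38.0 and 41.9 with 39.5% of words shared and its nearest read 79.9 kb away. Gm26809, at 4.18, 4.54, 19.2 and 20.2, had 36.8% of its words in other genes and its nearest read 3.86 kb away. By contrast Malat1, an abundant nuclear RNA associated with splicing speckles, was at 9.65, 10.8, 23.9 and 29.9 with 6.24% of its words shared and had 135 reads, the densest stretch lying 875 bp before the annotated TSS. AI506816 had 97 reads at a mean of 10.5 normalized FPK. The remaining genes of the top 10 were AY036118, Gm42047 (mean 9.64, 64.8% of words shared, no read) and U90926 (mean 9.25, no read within 3.28 kb), which M21 annotates as protein-coding.

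**Figure D3:**
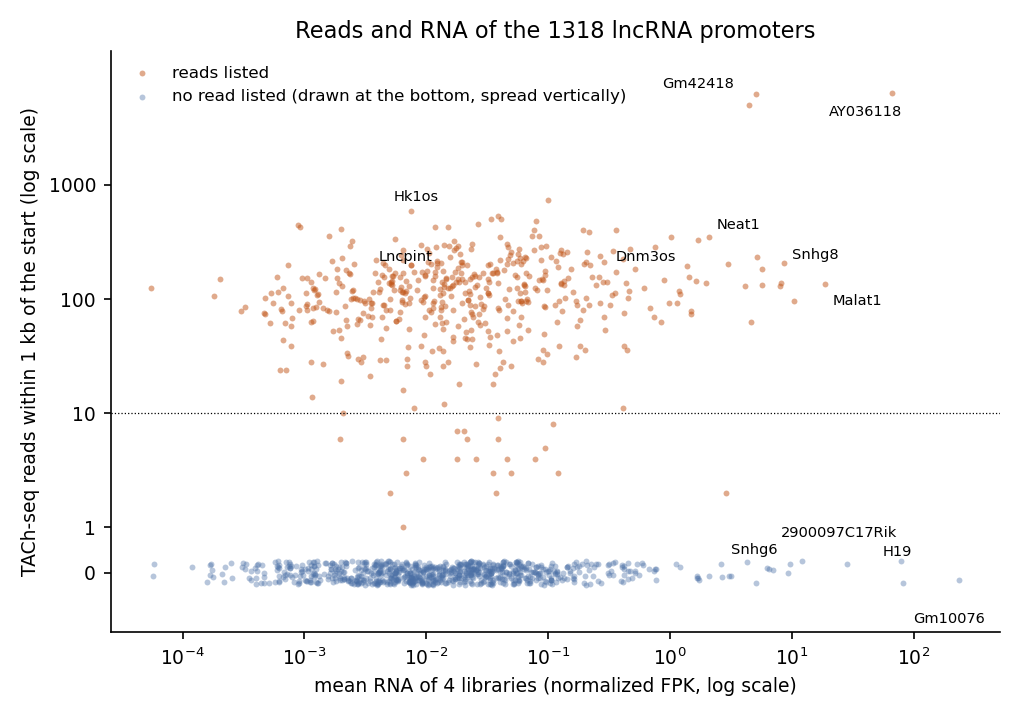
TACh-seq reads within 1 kb of the TSS against the mean RNA of the 4 libraries in normalized FPK, both on log scales, one point for each of the 1318 lncRNA genes; genes with no listed read are drawn in blue at the bottom and the dotted line marks 10 reads. Accessible promoters lie at mean RNA from 5.52e-05 to 65.8, the 3 genes above that level have no listed read, and H19, 2900097C17Rik, Snhg6 and Gm10076 lie at high RNA without a listed read.

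The largest read counts came from a repeat locus, and some of the next largest from promoters with a coding start nearby in the annotation. The 3 genes that lie within 39843013 to 39848788 of chromosome 17 held 6384 (AY036118), 6244 (Gm42418) and 5006 reads (Gm26917) where the next region held 741; the locus is known to hold sequence of the ribosomal RNA repeat, and 100% and 94.9% of the words of AY036118 and Gm42418 but 0.00% of those of Gm26917 occur in transcripts of other genes. AY036118 lies inside Gm42418 on the opposite strand, and since both strands were searched, words that these overlapping genes share with each other count among the shared ones. Next came 2700012I20Rik with 741 reads, Hk1os with 590, Gm7008 with 531, 6720427I07Rik with 504, Carmn with 502, AC141471.3 with 481 and 1600019K03Rik with 457. Although none of these has a coding gene start of the table within 2 kb, M21 places a coding transcript start of Sin3a 363 bp from 2700012I20Rik, one of Hk1 286 bp from Hk1os and one of Ifrd1 431 bp from Gm7008. For 6720427I07Rik, Carmn, AC141471.3 and 1600019K03Rik the nearest annotated coding start lay 32930, 22398, 19576 and 18546 bp away. The mean RNA of 2700012I20Rik to 1600019K03Rik ranged from 0.00745 in Hk1os to 0.0995 in 2700012I20Rik, below the level at which genes were tested. Carmn, a smooth-muscle-enriched lncRNA that hosts microRNAs, was at 0.0227, 0.0225, 0.0380 and 0.0534. In all, 156 of the 1318 regions had an annotated coding transcript start within 2 kb; 99 of them were accessible (63.5%, 55.4 to 71.0), against 392 of the other 1162 (33.7%, 31.0 to 36.5).

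Position relative to coding genes separated the promoters moderately. Intergenic starts were accessible in 313 of 795 cases (39.4%, 35.96 to 42.9) and starts inside a coding gene on the opposite strand in 161 of 426 (37.8%, 33.2 to 42.6), whereas starts inside a coding gene on the same strand were accessible in 17 of 97 (17.5%, 10.6 to 26.6). The last group includes RNA that cannot be told apart from the host gene's unspliced transcript. Starts 2 to 5 kb from a coding TSS were accessible in 48.2% of 164 cases, those at 5 to 20 kb in 34.1% of 355, those at 20 to 100 kb in 34.6% of 558 and those beyond in 40.7% of 241. Near the 2-kb limit, Notumos and Gm11940 lay just outside at 2018 and 2024 bp with 0 and 46 reads, and Gm26694 and 1810012K08Rik just inside at 1993 and 1975 bp with 0 and 21 reads. On the X chromosome 8 of 29 promoters were accessible (27.6%, 12.7 to 47.2), against 37.6% of 1286 on autosomes.

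Accessibility varied widely with CpG content, also where RNA was scarce. In the 300 bases around the TSS, 155 of 1317 lncRNA promoters (11.8%) were CpG-rich, defined as at least 55% GC and an observed-to-expected CpG ratio of at least 0.65, against 46.8% of coding promoters. CpG-rich lncRNA promoters were accessible in 117 of 155 cases (75.5%, 67.9 to 82.0) and CpG-poor ones in 374 of 1162 (32.2%, 29.5 to 34.96). Below 0.1 normalized FPK, 84 of 115 CpG-rich lncRNA promoters were accessible (73.0%, 64.0 to 80.9), against 54.1% (51.5 to 56.6) of CpG-rich coding promoters at the same RNA level. At 0.1 or more, CpG-poor lncRNA promoters were accessible in 62 of 166 cases (37.3%, 29.98 to 45.2) and CpG-poor coding promoters in 75.04% (73.8 to 76.3). CpG-rich promoters at that level reached 82.5% (67.2 to 92.7) for lncRNA and 92.7% for coding genes.

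**Figure D4:**
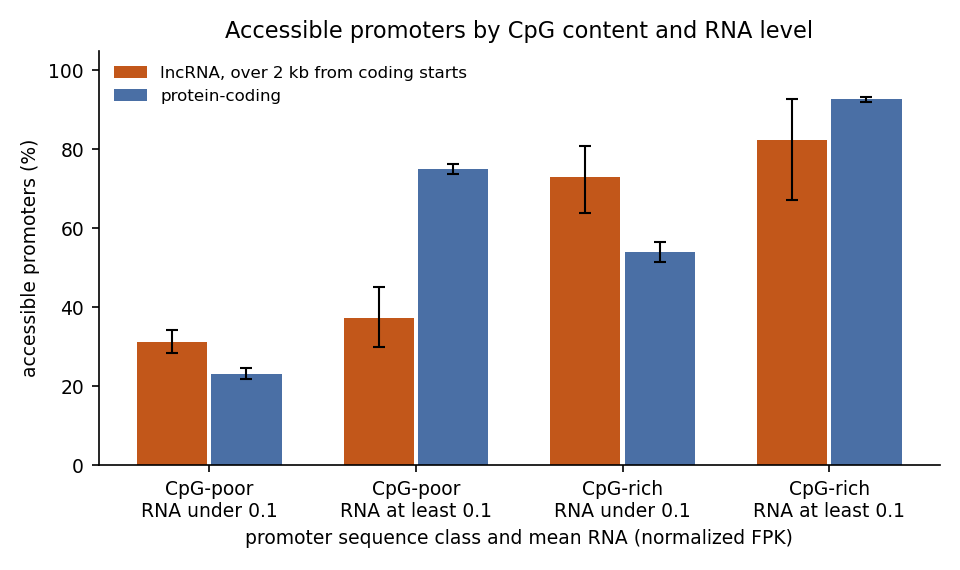
Percentage of accessible promoters for lncRNA genes over 2 kb from coding starts and for protein-coding genes, split by CpG content of the 300 bases around the TSS and by mean RNA in normalized FPK; bars are shares and lines are 95% exact binomial intervals. Among lncRNA genes the CpG-rich bars (73.0% and 82.5%) stand above the CpG-poor bars (31.3% and 37.3%) at either RNA level.

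Short motifs rich in G and C were more frequent in accessible than in other lncRNA promoters. The GC box GGGCGG occurred in 33.6% of accessible and 14.0% of other lncRNA promoters, against 48.8% of all promoters of the table. The ETS site CCGGAAG was found in 7.94% and 3.15% (12.7% of all promoters), and the E-box CACGTG, the sequence that MYC with MAX binds, in 9.78% and 4.84% (8.34%). The TATA box TATAAA went the other way, with 10.4% and 16.7% (10.4%). CCAAT was found in 35.6% and 36.3% (37.7%), and the AP-1 site TGANTCA in 12.4% and 11.02% (6.10%). Both strands were searched, no 2 of these motifs contain each other, and a match is a description of letters, not of binding. In the sequences shown above, the CCAAT boxes of Snhg5 at −40 and of Snhg8 at −53 are such matches.

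Of the 1318 genes, 44 are on lists of known lncRNAs. Among these, 29 were accessible, beside 37.3% of all 1318, 14 had no read listed and 19 reached 0.1 normalized FPK. Among 6 nuclear or scaffold RNAs, 4 had accessible promoters. Neat1, the backbone of paraspeckles, had 348 reads and RNA at 1.33, 1.09, 2.78 and 3.08 normalized FPK in low_MYC 1 and 2 and high_MYC 1 and 2. Firre, an X-linked RNA involved in nuclear organisation, had 74 reads at a mean of 0.0269, and Miat had none at 0.0205.

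Imprinted lncRNAs were accessible in 5 of 9 cases. Kcnq1ot1 and Airn, which silence neighbouring genes on the paternal chromosome, had 135 and 129 reads although their means were 0.0139 and 0.00720. Peg13 had 129 reads with RNA at 2.54, 2.66, 5.30 and 5.92. Nespas had 107 reads at a mean of 0.00981. Within the Dlk1-Dio3 cluster, Meg3 had 69 reads at 0.539, 0.437, 0.920 and 1.08, whereas Rian at 1.95, 1.82, 3.99 and 4.50 and Mirg at 0.129, 0.115, 0.231 and 0.240 had no read, the nearest lying 59.8 and 19.02 kb away. Snhg14 had no read and a mean of 0.00104.

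Of 13 hosts of small RNAs, 9 had accessible promoters and 9 reached 0.1 normalized FPK. Snhg8 had 207 reads and RNA at 5.11, 5.33, 13.0 and 10.8, Snhg5 had 234 reads and 3.47, 3.36, 6.81 and 7.10, and Snhg12 had 63 reads and 3.08, 2.91, 5.93 and 6.56. Snhg15, Snhg17 and Snhg20 had 144, 117 and 54 reads. Snhg6 stood apart with RNA at 3.06, 3.43, 6.54 and 7.41 and its nearest listed read 92.6 kb away. Mir17hg, which hosts the miR-17-92 cluster and is a known MYC target, had 96 reads and 0.0893, 0.116, 0.228 and 0.250. Mir155hg had 70 reads and a mean of 0.0130, while Mirt1 and Mir99ahg had none.

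Growth, p53 or MYC linked genes were accessible in 9 of 10 cases, although 4 of the 10 reached 0.1 normalized FPK. Pvt1, which lies 52.6 kb from the TSS of Myc on chromosome 15, had 77 reads and RNA at 0.0153, 0.0159, 0.0310 and 0.0317. Trp53cor1, a p53-induced RNA next to Cdkn1a, had 149 reads at 0.0550, 0.0520, 0.121 and 0.128. Lncpint had 169 reads at a mean of 0.00555, Lockd 173 at 0.0381, Dleu2 168 at 0.0347, Dancr 210 at 0.287, Bvht 223 at 0.0466 and Epb41l4aos 110 at 1.20. The exception was 2900097C17Rik.

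Developmental lncRNAs were accessible in 6 of 10 cases and the X-inactivation genes in 1 of 3. Hoxb5os and Hoxaas3 had 62 and 30 reads, Hoxb3os had 6, and Hotair, Hand2os1 and Dlx1as had none, with mean RNA from 0.00276 in Hoxaas3 to 0.0386 in Hoxb3os. Xist, the RNA that coats the inactive X chromosome, had no read and RNA at 0.00209, 0.00324, 0.00256 and 0.00386. Jpx had no read, and Ftx had 43 at a mean of 0.0167.

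The fitted level of each tested lncRNA gene was higher in high_MYC than in low_MYC cells per cell equivalent. RNA was compared on log2(normalized FPK + 0.1) with limma over the 11870 genes whose mean was at least 0.1, which 207 of the 1318 lncRNA genes passed; a gene was called at an adjusted p under 0.01 and a difference of at least 2-fold. By this rule 60 of the 207 were called higher and 0 lower (0 lower also at an unadjusted p under 0.05), beside 55.1% of all tested genes called higher. At an adjusted p under 0.05 and any fold, 201 were higher, beside 98.5% of all genes. Both high_MYC libraries exceeded both low_MYC libraries in 204 of the 207 and in 99.0% of all tested genes. The median log2 difference was 0.84 for the lncRNA genes and 1.03 for all tested genes. With a pseudocount of 0.01, 132 of the 207 lncRNA genes and 10076 of all 11870 were called higher, so the lncRNA share of calls stayed lower. Much of the gap in medians follows the pseudocount at low levels: with a pseudocount of 0.01 the medians were 1.10 and 1.15. Among genes with a mean of at least 1 they were 1.12 and 1.12. Accessible promoters and promoters without a read did not separate in this respect, with medians of 0.86 over 95 genes and 0.84 over 109. In such bulk samples, more RNA per cell and a different mix of cells cannot be told apart. An error in cell count or spike-in amount common to a group would also shift all its genes together. Technical replicates of a group cannot show such an error, and it was not tested.

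Because nearly every gene rose together under the spike-in scaling, differences relative to the other genes were read after each library had been rescaled to the same median. The rescaling lowered the median difference of all genes to −0.0039 and that of the lncRNA genes to −0.03. At an adjusted p under 0.05, 13 lncRNA genes (6.28%) were then higher, beside 7.82% of all tested genes, and 13 (6.28%) were lower, beside 5.07%. Of the 13 higher genes 3 had an accessible promoter and 10 had no read; of the 13 lower ones 9 were accessible and 4 had no read.

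The genes that rose most were without listed reads. Gm12840 was at 0.635 and 0.702 in low_MYC and 5.06 and 6.29 in high_MYC libraries, a log2 difference of 2.90 ± 0.11 (SE; limma adjusted p = 1.04e-05) and 1.80 ± 0.09 after rescaling (adjusted p = 0.00388). Gm26809 rose by 2.15 ± 0.06 on the log2 scale and by 0.99 ± 0.04 after rescaling (adjusted p = 0.00266). U90926, at 4.10 and 4.15 against 13.7 and 15.04, rose by 1.78 ± 0.06 and 0.61 ± 0.03 (adjusted p = 0.00388). Gm20634 was at 0.741 and 0.795 against 2.54 and 2.53. It lies among histone genes, and M21 places a coding transcript start of Hist2h2aa1 57 bp from its TSS. Gm43079, at 0.0405 and 0.0492 against 0.237 and 0.281, rose by 0.70 ± 0.06 after rescaling (limma adjusted p = 0.0111). It completes the 5 largest rises after rescaling among genes that passed the test and whose groups did not overlap. H19 rose by 1.55 ± 0.05 and by 0.38 ± 0.05 after rescaling (adjusted p = 0.0238). The libraries of the groups did not overlap in these 6 genes by selection, since the largest changes were chosen with the groups apart. Both high_MYC libraries exceeded both low_MYC libraries in 99.0% of all tested genes. Of the transcript words, 45.8% (Gm12840), 36.8% (Gm26809), 89.7% (Gm20634) and 93.7% (Gm43079) occur in other genes, but 0.00% in U90926.

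Most named RNAs with accessible promoters did not pass the test once the libraries had been rescaled. The same held for most tested genes, of which 7.82% passed as higher and 5.07% as lower. Malat1 rose by 1.38 ± 0.12 and Neat1 by 1.22 ± 0.10 on the log2 scale (limma adjusted p = 8.32e-05 and 7.59e-05), and after rescaling neither passed the test (0.21 ± 0.10 and 0.10 ± 0.11, adjusted p = 0.220 and 0.571). Dnm3os differed by 0.00096 ± 0.068 after rescaling. Of the 7 Snhg genes tested, 4 were called higher with a median log2 difference of 1.01, beside 55.1% and 1.03 for all tested genes. After rescaling, 6 of the 7 lay below 0 with a median of −0.15. The median was −0.0039 for all tested genes and −0.03 for the 207 lncRNA genes, of which 92 lay above 0. Snhg20 passed the test at −0.36 ± 0.07 (limma adjusted p = 0.0460). The 5 largest falls relative to other genes were ranked among genes that passed this test and whose groups did not overlap. They were those of 2010300F17Rik (−0.54 ± 0.06), Ifi30 (−0.46 ± 0.04), Gm26532 (−0.42 ± 0.07), Gm53 (−0.41 ± 0.03) and Spata5l1 (−0.41 ± 0.06). The limma adjusted p ran from 0.00905 in Gm53 to 0.0376 in Gm26532. Per cell equivalent each of them was higher in high_MYC cells, for example Ifi30 at 9.94 and 9.93 against 6.04 and 6.11. The expression table calls Ifi30 and Spata5l1 lncRNA genes and M21 calls both processed transcripts. Whether either encodes a protein was not examined, so neither can be taken as noncoding here.

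Markers of another cell type moved with the groups. All 15 macrophage markers, among them the lysozyme gene Lyz2, were higher in both high_MYC libraries. So were all 10 fibroblast markers and 99.0% of all tested genes. The summed level of the macrophage markers went from 0.947 and 1.30 to 29.8 and 31.1 normalized FPK. C1qa, Adgre1 and Tyrobp were at 0 in the first low_MYC library. Adgre1, Ptprc, Aif1, Itgam and Cx3cr1 had a mean below 0.1 and were not tested. All 10 fibroblast markers were expressed in both groups, with sums of 397 and 404 in low_MYC and 968 and 997 in high_MYC libraries. The part of the macrophage signal in the lncRNA differences was not tested. Myc itself was at 9.81 and 9.86 in low_MYC and 20.3 and 20.5 in high_MYC libraries, and the summed level of all genes was 46321 and 48291 against 102853 and 109090.

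**Figure D5:**
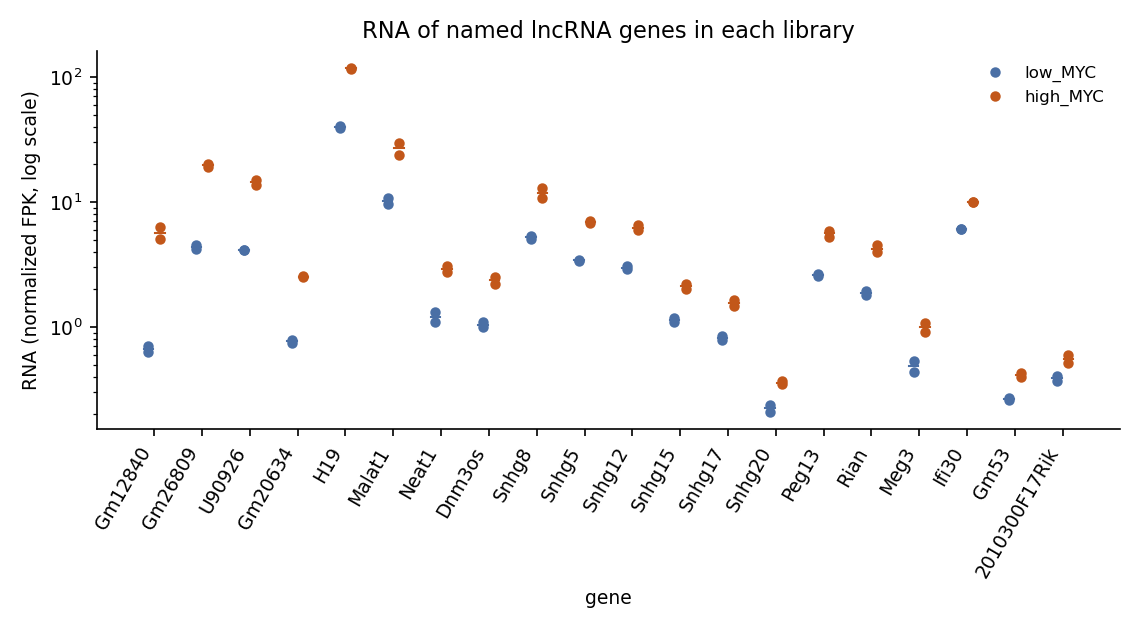
RNA of 20 named genes, all called lncRNA by the expression table, in normalized FPK on a log scale. Dots are the low_MYC (blue) and high_MYC (orange) libraries, and short lines are the means of 2. Every high_MYC dot lies above the low_MYC dots of the same gene, with the widest gap in Gm12840 and the narrowest in 2010300F17Rik.

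FUBP1 peaks could be compared with the lncRNA promoters of chromosome 15 alone. The peak list used here holds 166 peaks, all on that chromosome, where 53 of the lncRNA promoters lie and 17 of them are accessible. Peaks overlapped 3 of the 53 and 16 of 599 protein-coding promoters of the chromosome, by at least 1 base of the TSS region. Has2os, antisense to a hyaluronan synthase gene, had a peak of 5000 bp (chr15:56687801-56692800) and 29 reads. Gm17057 had a peak of 2600 bp (chr15:99818001-99820600) and 154 reads, and Gm26518 one of 6000 bp (chr15:102479201-102485200) and no read. Their mean RNA was 0.00415, 0.00148 and 0.00362 normalized FPK, and all 3 started inside a coding gene on the opposite strand. M21 places a coding transcript start of Pcbp2 432 bp from Gm26518 and one of Lima1 1123 bp from Gm17057, so these peaks lie near coding starts as well. The list carries no heights, so the peaks could not be ranked. The promoter of Pvt1 was not overlapped.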

How the data were processed

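RNA-seq of sorted low_MYC and high_MYC MEFs (2 technical replicates each), TACh-seq (4 samples, 1 table) and FUBP1 ChIP-seq (1 sample) were analysed from the processed files. For RNA-seq, low-quality 3′ bases were trimmed and reads aligned to the mouse transcriptome (mm10) with TopHat and quantified with the Partek E/M algorithm; versions are not given in the sources used here. The deposited signal values are FPK that the authors divided by the geometric mean of 10 ERCC spike-ins, so they are relative to cell number; the depth of the libraries is unknown. Quantification splits reads between near-identical, overlapping and antisense genes, which are therefore uncertain, and whether strand was used in counting is not stated. For TACh-seq, the authors aligned trimmed reads to mm10 with Bowtie2 and called islands with SICER; the deposited table gives each read's position and mapping score (11 to 42) and holds only reads in islands. Which of the 4 samples the reads come from is not stated, and WT and KOKD were not compared. FUBP1 peaks were called by the authors with SICER against input.

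Reads were counted by their 5′ end within 1 kb of the TSS, and 10 reads made a region accessible. Gene ends of the table lie 1 base past the annotation (GENCODE M21) and were corrected. M21 held 1280 of the genes and called 11 of them protein-coding, U90926 among them. The lncRNA class is that of the expression table and was not checked against known proteins. Promoters were read from the mm10 genome, and 1 of 1318 held unknown bases and was left out. limma 3.58.1 in R 4.3.3 (lmFit, eBayes with trend, Benjamini-Hochberg over all tested genes) was run on log2(FPK + 0.1) and checked on simulated data. The low_MYC and high_MYC libraries share replicate numbers 1 and 2. Named genes are those on the lncRNA lists, the 10 with most reads, the 10 with highest RNA, the 5 of highest RNA without a read, the 5 largest changes in each direction (of those called or, after rescaling, at an adjusted p under 0.05, with groups apart) and those under FUBP1 peaks. Another 6 genes that the table gives under several biotypes were left out. The genes, lists and rules were chosen with earlier results of these data known, and the split of RNA levels at 0.01, the windows beside start sites and the shared-word measure were added after the data had been seen. Alternatives covered windows, read limits, mapping score, pseudocount, filters, scaling, trend, replicate block and left-out libraries. A promoter sequence that had been chosen for display is not reported here.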

Additional observations from a re-analysis of the deposited data

How the results depend on the processing

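The number of regions stayed within 1.5 times of 1318 with a distance limit of 1 kb (1437) or 5 kb (1154) or with the annotated coding transcript starts (1170). The accessible share of 37.3% moved to 40.2% in windows of 2 kb to either side, to 32.2% with a limit of 50 reads and to 33.7% without the regions that hold an annotated coding start, the last chosen after seeing the data; under the other 8 alternatives it stayed inside its counting interval, between 35.4% and 39.7%. The rank correlation with RNA ranged from 0.11 to 0.15 over its alternatives.

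Of all 11870 tested genes, 6540 were called higher in high_MYC, 10076 with a pseudocount of 0.01 and 1448 with a pseudocount of 1. At a minimum mean of 1 it was 4779 of 5608, after rescaling 65, and at an adjusted p under 0.05 and any fold 11689. The 60 lncRNA genes called higher became 132 with a pseudocount of 0.01 and 15 with a pseudocount of 1. With a minimum mean of 1 (50 lncRNA genes tested) the count was 39, and after rescaling to the same median it was 1. At an adjusted p under 0.05 and any fold it was 201. Without 1 library the count ranged from 52 to 72; the lone library of a group was assumed to vary like the other group. The replicate block gave 61. Deviations of same-numbered libraries from their group means correlated at 0.08 over genes. This is a single correlation, so it cannot show whether same-numbered libraries shared a preparation or run. Restricting the count to genes with less than 50% of their words shared gave 41.

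Of the 36 named genes tested, 19 turned below 0 after the rescaling, which removes the common shift: 2010300F17Rik (−0.54), Ifi30 (−0.46), Dancr (−0.42), Gm26532 (−0.42), Gm53 (−0.41), Spata5l1 (−0.41), Snhg20 (−0.36), Snhg15 (−0.26), Snhg17 (−0.22), Snhg5 (−0.15), Mirg (−0.15), Meg3 (−0.13), Snhg12 (−0.11), Epb41l4aos (−0.11), Gm10076 (−0.092), Snhg6 (−0.075), Peg13 (−0.070), Gm26825 (−0.060) and Rian (−0.0097). None turned under any other alternative. The rescaling sets the median of all tested genes near 0 (−0.0039), so many genes fall below 0. Among the 207 lncRNA genes tested, 92 stayed above 0. A single read table, with its libraries unstated, limits accessibility to a description, and low RNA levels limit the tested genes to 207 of 1318.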
